A study of Homo sapiens with 6 samples.

Results

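The genes described here are 58 that build or run mitosis: the mitotic cyclins and their kinase CDK1, the spindle checkpoint, the kinetochore, the chromosomal passenger complex, the activators of the anaphase-promoting complex, the spindle, the cytokinetic apparatus and condensin. They were taken by name from the 58735 genes of the deposited table and sorted into 9 roles by function. The rule uses no measured value, but the list was drawn up with earlier results of these data known. All 58 were found, on 21 chromosomes. The study had exposed AZ-521 cells, a human line that its labels give as wild-type gastric cancer cells of the stomach, for 48 h either to 10 µM of a saponin the labels call platycodon D (PD) or to the solvent DMSO, in order to look for mechanisms behind an activity against gastric cancer. Polyadenylated RNA was sequenced from 3 samples of each group, all of the same line and genotype, so the comparison rests on a single cell line, 1 dose and 1 time. The labels do not say whether the samples were separate cultures, so the p-values cover only sample-to-sample spread, which may be technical.

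Reads over genes numbered 14915538 to 16341687 per sample, so depth differed little between samples. The identity of the line was checked against defining markers. All 8 gastric markers, among them TFF1, MUC5AC and GKN1, stood below 1 FPKM (fragments scaled by gene length and library size) in every sample, with a summed level of 0.416 to 0.762 FPKM in DMSO and 0.334 to 0.788 FPKM in PD, and 4 of them were listed at 0 throughout. Of 7 intestinal markers, 6 stood below 1 FPKM, and CDX2 stood between 0.979 and 1.59 FPKM. The epithelial keratins KRT18 and KRT19 were listed at 0, while VIM, a mesenchymal filament protein, stood between 72.4 and 107 FPKM. The other 3 mesenchymal markers, COL1A1, COL1A2 and DCN, stood below 1 FPKM in every sample. Summed epithelial markers stood at 1.46 to 1.70 FPKM in DMSO and 2.67 to 3.599 FPKM in PD, mostly from CLDN4. Summed mesenchymal markers stood at 96.9 to 109 FPKM in DMSO and 73.6 to 90.0 FPKM in PD, almost all from VIM. Their part in the results below was not tested. The labelled gastric cell type is therefore not borne out by its markers, and the cells are called AZ-521 below. Immune and endothelial markers were below 1 FPKM in every sample, 3 of 3 in each list.

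Mitosis is driven by CDK1 bound to cyclin B. The complex is switched on by CDC25 phosphatases and held off by WEE1-type kinases, and mitosis ends when the anaphase-promoting complex, with CDC20, marks securin and cyclin B for destruction. Most of the genes for this machinery are transcribed mostly late in the cell cycle, through promoter elements known as the cell cycle genes homology region (CHR) and CCAAT boxes, which are bound by the MuvB complex with B-MYB and FOXM1 and by NF-Y. In a growing line their RNA level therefore depends on how many cells are in the late cell cycle as well as on how much RNA each such cell holds, and in bulk samples fewer cells of that kind and less RNA per cell cannot be told apart.

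Nearly the whole set stood lower in PD. Of the 58 genes, 56 passed the minimum level (at least 1 FPKM in at least 3 samples), and PRC1 and SPC24 did not. Among the 56, 47 fell at an adjusted p under 0.05 (limma on log2(FPKM + 1), Benjamini-Hochberg adjustment over all 13579 genes tested), against a background of 12.7% of all genes that fell. None of them rose, while 14.3% of all genes did. A fall of at least 2-fold on that scale was called for 14 of the 56, namely CCNB1, CCNB2, PLK1, BUB1, TTK, HJURP, NDC80, SGO2, CDC20, AURKA, HMMR, ASPM, TOP2A and MKI67, against 0.979% of all genes. The 3 PD samples all lay below the 3 DMSO samples for 52 of the 56, against 21.9% of all genes. The median log2 fold change was -0.81 (quartiles -0.99 and -0.58), where the median of all genes tested was 0.00 (quartiles -0.24 and 0.26). The 9 that did not pass were CKS1B, CKS2, BUB3, MAD2L1, CENPN, CENPW, INCENP, NUSAP1 and ANLN, and CKS2 was the only member with a positive log2 fold change.

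**Figure D1:**
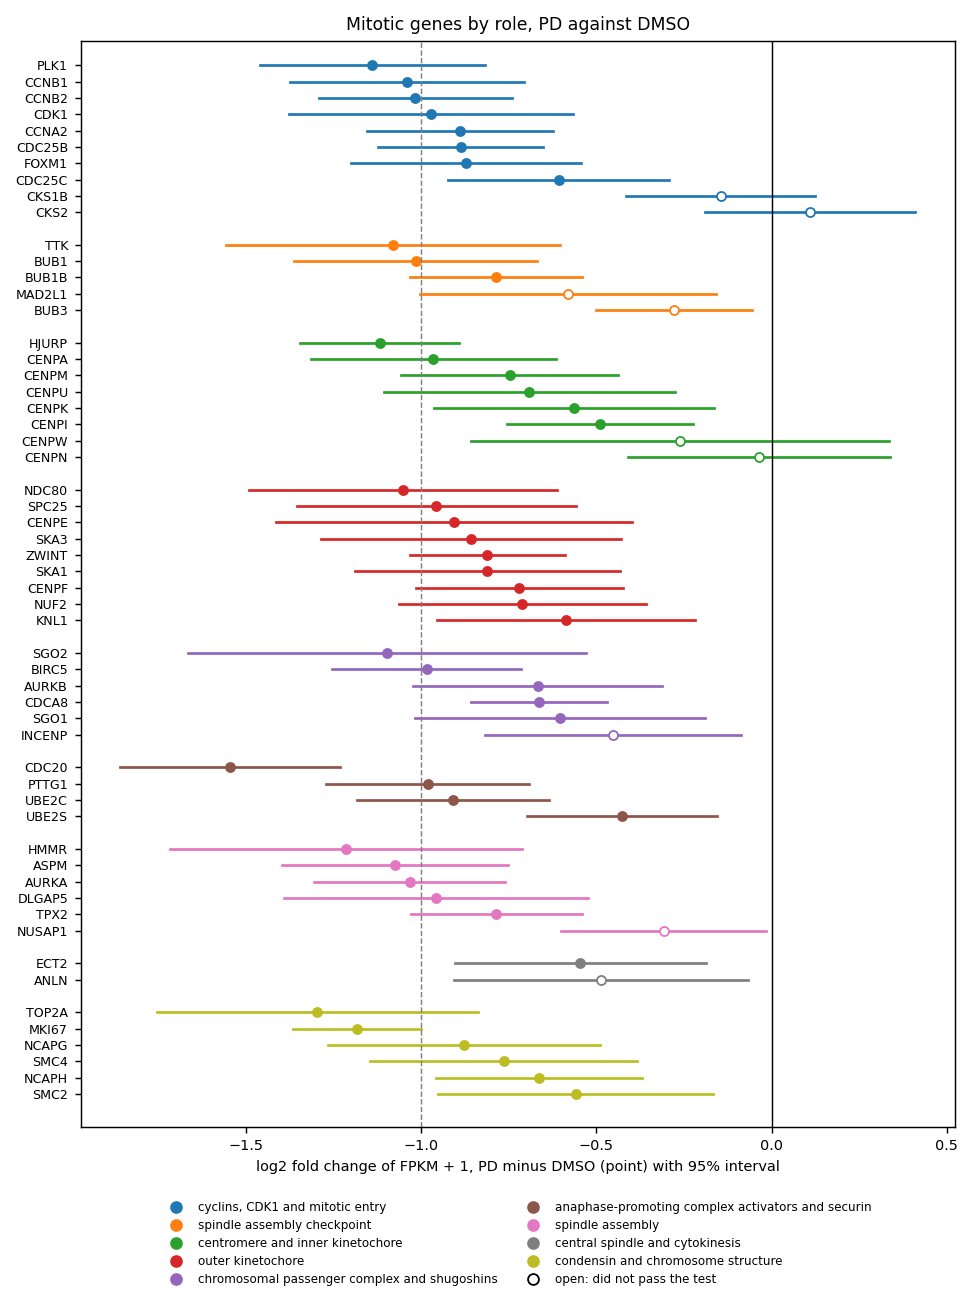
Log2 fold change (PD minus DMSO, on the log2(FPKM + 1) scale) of the 56 genes tested, by role in mitosis, with 95% intervals from limma (3 samples per group). Filled points passed at an adjusted p under 0.05, open points did not, and the dashed line marks a 2-fold fall; CDC20 lies furthest down at -1.55, and CKS2 alone lies above 0.

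The count of fallen members held up better than the count past 2-fold. Leaving out each sample in turn gave 34 to 45 fallen members, with 34 when PD replicate 2 was left out, and 33 of the 47 fell whichever single sample was left out. The 2-fold count was 9 without PD replicate 2 and 22 without PD replicate 3. It also moved with the scale, to 3 with a pseudocount of 5, to 24 when every library was scaled to the same total and to 31 in a fit on the recovered reads. The last 2 settings shifted the median of all genes to -0.10 and -0.12 on the log2 scale, and with equal totals the share of higher genes among all 2-fold calls was 58.6%, and in the fit on recovered reads 48.0%, instead of 74.4%.

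Within each group 1 library stood apart for these genes. DMSO replicate 1 held the highest value of its group in 37 of the 56 members, and PD replicate 3 in 42. The median member lay 0.16 above, 0.11 below and 0.04 below the DMSO mean on the log2 scale in DMSO replicates 1, 2 and 3, and 0.91, 0.87 and 0.66 below it in PD replicates 1, 2 and 3. The summed level of all 58 was 1298, 1091 and 1133 FPKM in DMSO and 668, 662 and 806 FPKM in PD, so the groups did not overlap. Without those 2 libraries 49 members fell and 17 were called at 2-fold, and none rose. Of all genes, 15.9% then fell, instead of 12.7%. The 2 libraries were picked from the values of these same members, so these counts are no independent support.

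The 2 libraries that stood apart also differed from their groups by GC content, and so did the others except PD replicate 2. Across all genes, the deviation of a library from its group mean followed the GC content of the transcript with Spearman's rho of -0.637, 0.462 and 0.535 for the DMSO libraries and 0.606, 0.0210 and -0.524 for the PD libraries, in replicate order. Over the 56 members, Pearson's r was -0.777 for DMSO replicate 1 and -0.608 for PD replicate 3. It was 0.646 and 0.675 for DMSO replicates 2 and 3, 0.589 for PD replicate 1 and -0.0843 for PD replicate 2. These are correlations across genes of the same library, which are not independent replicates. Deviations from a group mean also offset each other within the group, so the values of libraries of the same group are not independent. Member transcripts had a median GC content of 42.3%, and all genes tested 47.9%. A smooth curve on GC content was then subtracted from each library. It was fitted to deviations from the mean of all samples, so it can also take up GC-linked differences between PD and DMSO. The correction lowered the median standard error of the members from 0.146 to 0.104 and made it smaller in 51 of the 56. The log2 fold changes of the members moved by at most 0.09, and 51 members fell. Calls rose over the whole table too, where 21.6% of all genes fell after the correction, instead of 12.7%. The source of the GC pattern was not tested.

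**Figure D2:**
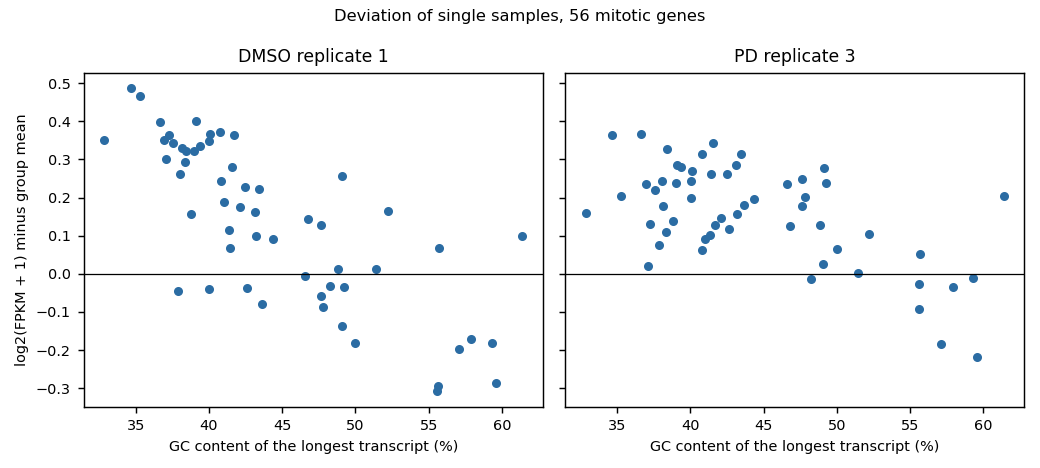
Deviation of log2(FPKM + 1) from the group mean (y axis) against the GC content of the transcript in percent (x axis) for the 56 members in DMSO replicate 1 and PD replicate 3. Deviations tend to be lower at higher GC content in both libraries, with Pearson's r of -0.777 and -0.608 and with single members that depart from the trend.

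The promoters of 5 genes are printed to show the elements described above in genes that fell furthest and in 1 that did not pass. They are the last 200 bases before the start that RefSeq gives (build GRCh38.p14), on the gene's own strand and 5′ to 3′. That start can differ from the start of the gene as placed in the deposited values. The HMMR stretch lies wholly inside the gene so placed, and those of CDC20, TOP2A and CCNB1 lie partly inside. Capitals mark TTTGAA, the core of the CHR, its variant TTTAAA and the CCAAT box on either strand (TTCAAA and ATTGG on the other). CDC20 (chr1:43358781-43358980, plus strand), TOP2A (chr17:40417897-40418096, minus strand) and HMMR (chr5:163460432-163460631, plus strand) had the largest falls among well expressed members. CCNB1 (chr5:69166950-69167149, plus strand) encodes cyclin B1. CKS2 (chr9:89310995-89311194, plus strand) was chosen after its values were seen, as the only member tested with a positive log2 fold change.
CDC20: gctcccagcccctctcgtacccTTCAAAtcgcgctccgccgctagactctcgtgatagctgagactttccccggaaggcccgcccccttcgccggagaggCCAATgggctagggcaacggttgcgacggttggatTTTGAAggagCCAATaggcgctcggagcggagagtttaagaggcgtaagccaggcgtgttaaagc
TOP2A: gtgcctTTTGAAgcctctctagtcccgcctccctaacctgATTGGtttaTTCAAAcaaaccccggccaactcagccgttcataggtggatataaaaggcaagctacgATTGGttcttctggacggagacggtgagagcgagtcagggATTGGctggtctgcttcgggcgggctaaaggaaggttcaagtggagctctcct
HMMR: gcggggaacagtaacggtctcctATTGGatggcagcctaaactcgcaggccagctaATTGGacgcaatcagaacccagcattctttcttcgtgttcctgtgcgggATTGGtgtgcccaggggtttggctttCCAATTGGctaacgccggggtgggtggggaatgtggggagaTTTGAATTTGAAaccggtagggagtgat
CCNB1: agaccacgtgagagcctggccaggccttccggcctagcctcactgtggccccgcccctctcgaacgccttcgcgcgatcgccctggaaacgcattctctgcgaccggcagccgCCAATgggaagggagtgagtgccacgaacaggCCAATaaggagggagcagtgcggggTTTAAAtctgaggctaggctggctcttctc
CKS2: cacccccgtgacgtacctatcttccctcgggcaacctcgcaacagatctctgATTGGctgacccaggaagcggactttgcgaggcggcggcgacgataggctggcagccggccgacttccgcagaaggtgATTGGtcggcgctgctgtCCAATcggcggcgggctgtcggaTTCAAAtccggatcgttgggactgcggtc
In HMMR a pair of TTTGAA matches stand side by side, 28 and 22 bases before the start, and a CCAAT and an ATTGG match share bases. CDC20 has TTTGAA 65 bases before the start with CCAAT at 100 and 55 bases. CCNB1 has no TTTGAA but TTTAAA at 30 bases, and CCAAT at 87 and 55 bases. CKS2 has TTCAAA at 29 bases and CCAAT boxes at 148, 70 and 52 bases, so these letters also stand before the start of a gene that did not pass the test.

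Across the set, RefSeq windows from 250 bases before to 50 after the start were found for 49 of the 58 members (not for AURKA, BIRC5, BUB3, CENPM, FOXM1, KNL1, TPX2, TTK and UBE2C). On either strand, TTTGAA occurred in 32 of the 49 (65.3%), in 9.28% of the 8859 tested genes with a window and in 15.2% of all 35116 windows. In 36.7% of the members it began in the last 50 bases before the start, against 1.56% of the genes tested. CCAAT occurred at least once in 73.5% and at least 2 times in 49% of the members, against 37% and 13.7% of the genes tested. TTTGAA together with at least 2 CCAAT was found in 36.7% of the members and 1.43% of the genes tested. TTTAAA was found in 24.5% against 7.20%, and the E2F-type site GGCGGGAA in 10.2% against 5.45%. By response, TTTGAA occurred in 24 of the 39 members that fell (61.5%) and in 8 of 10 that did not pass or were not tested. Members' windows had a median GC content of 61.0%, and those of the genes tested 65.7%. A match is a stretch of letters and not a measured binding site.

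**Figure D3:**
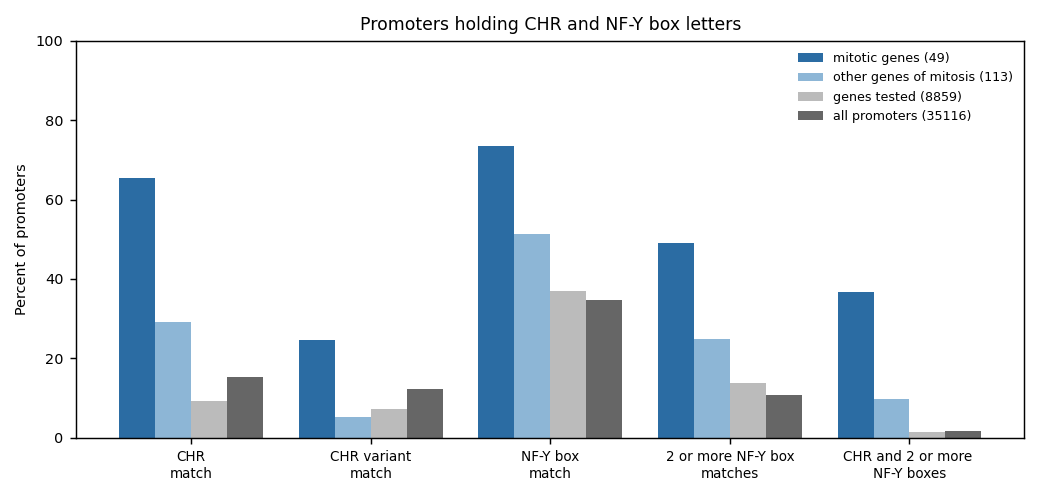
Percentage of promoter windows (250 bases before to 50 after the RefSeq start) that hold each match on either strand, for 49 members, 113 other mitosis genes, 8859 genes tested and all 35116 windows. TTTGAA was found in 65.3% of the members, 29.2% of the other mitosis genes and 9.28% of the genes tested.

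The first role is entry into mitosis, where 8 of 10 members fell and the median log2 fold change was -0.89. The mitotic cyclins and CDK1 all fell. CCNB1 (ENSG00000134057, chr5:69167010-69178245, plus strand of GRCh38, as are all gene positions here) encodes cyclin B1. Values are given in replicate order. It stood at 33.0, 27.2 and 28.3 FPKM in DMSO and at 12.0, 12.8 and 17.0 FPKM in PD, a log2 fold change of -1.04 ± 0.14 (SE, n = 3 per group, limma adjusted p = 0.00277). All PD samples lay well below all DMSO samples. CDK1 (ENSG00000170312, chr10:60778331-60794852), the kinase itself, stood at 31.0, 20.7 and 21.7 FPKM in DMSO and at 10.6, 10.9 and 14.1 FPKM in PD (-0.97 ± 0.17, limma adjusted p = 0.00736). DMSO replicate 1 was the highest library for CDK1, and the groups did not overlap. CCNB2, the second B-type cyclin, fell to 45.7% of its DMSO mean and CCNA2, the cyclin A of S and G2 phase, by 0.89 on the log2 scale (limma adjusted p = 0.00148 and 0.00208).

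The kinase PLK1, which switches on CDC25 and builds the spindle poles, fell furthest in this role. PLK1 (ENSG00000166851, chr16:23677656-23690367) stood at 13.2, 16.6 and 16.2 FPKM in DMSO and at 7.63, 6.15 and 5.49 FPKM in PD (-1.14 ± 0.14, limma adjusted p = 0.00168). Unlike CDK1, PLK1 was lowest of its group in DMSO replicate 1 and in PD replicate 3. FOXM1, a transcription factor of late cell cycle genes, was likewise lowest in DMSO replicate 1 and PD replicate 3, with 10.8, 14.4 and 15.8 FPKM in DMSO and 7.54, 6.84 and 6.44 FPKM in PD (-0.87 ± 0.14, limma adjusted p = 0.00503). Of its exonic bases, 15.9% are shared with ITFG2 on the opposite strand. The CDC25 phosphatases remove the inhibitory phosphates of CDK1. CDC25B stood at 14.0, 16.9 and 17.3 FPKM in DMSO and 8.09, 8.41 and 8.13 FPKM in PD (-0.89 ± 0.10, limma adjusted p = 0.00132). CDC25C was lower in level, at 5.05, 4.11 and 4.48 FPKM against 2.40, 2.26 and 3.32 FPKM (-0.61 ± 0.13, limma adjusted p = 0.0163). Its call ended without DMSO replicate 3, PD replicate 1 or PD replicate 2 (limma adjusted p = 0.0513, 0.0542 and 0.0622).

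The small CDK-binding subunits CKS1B and CKS2 did not follow the cyclins. CKS2 (ENSG00000123975, chr9:89311198-89316703) stood at 121, 113 and 113 FPKM in DMSO and at 109, 119 and 149.9 FPKM in PD. Its log2 fold change was 0.11 ± 0.13 (95% interval -0.19 to 0.41, limma adjusted p = 0.557), and it turned to -0.0117 with equal totals, -0.0618 with quantile scaling, -0.0111 in the fit on recovered reads and -0.0202 without PD replicate 3. CKS1B stood at 45.6, 45.7 and 53.7 FPKM in DMSO and at 41.9, 39.7 and 49.5 FPKM in PD (-0.15 ± 0.12, 95% interval -0.42 to 0.12, limma adjusted p = 0.386). Both had overlapping groups, and neither passed under any of the 19 alternatives run. CKS2 had the highest mean level of all 58 members in DMSO, and by mean CKS1B moved from rank 5 in DMSO to rank 3 in PD. Reads of the processed pseudogenes CKS1BP3 and CKS1BP2 came to 2.57% and 0.532% of those of CKS1B, and how the counting divided reads between these near-identical copies is not known, so the level of CKS1B is uncertain to that extent.

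In the spindle checkpoint, which holds anaphase until every kinetochore is attached, 3 of 5 members fell and the median log2 fold change was -0.79. The kinases fell. TTK, the MPS1 kinase that starts the signal, stood at 13.5, 9.17 and 8.45 FPKM in DMSO and at 3.34, 4.15 and 5.57 FPKM in PD (-1.08 ± 0.20, limma adjusted p = 0.00896). BUB1, a kinase that recruits the checkpoint proteins, stood at 23.8, 18.4 and 18.7 FPKM against 8.77, 8.34 and 11.5 FPKM (-1.02 ± 0.15, limma adjusted p = 0.00348). BUB1B, which encodes BUBR1 of the inhibitory complex, stood at 20.4, 18.0 and 18.6 FPKM against 9.47, 10.5 and 11.9 FPKM (-0.79 ± 0.10, limma adjusted p = 0.00243). MAD2L1 and BUB3 did not pass. Their PD samples all lay below their DMSO samples, as for 21.9% of all genes. MAD2L1 fell under 8 of the 18 alternatives that tested it, and BUB3 under 7 of 19. MAD2L1, the MAD2 protein that sequesters CDC20, stood at 7.84, 5.11 and 5.37 FPKM in DMSO and at 3.39, 3.13 and 4.69 FPKM in PD (-0.58 ± 0.18, 95% interval -1.003 to -0.16, limma adjusted p = 0.0506). BUB3, which anchors BUB1 and BUBR1, had the smaller difference of the pair, with 20.4, 17.4 and 18.5 FPKM against 14.4, 15.0 and 16.5 FPKM (-0.28 ± 0.10, 95% interval -0.50 to -0.06, limma adjusted p = 0.0666). After the correction for GC content BUB3 passed at -0.27 (limma adjusted p = 0.00709). By mean level it ranked 22 in DMSO and 12 in PD.

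At the centromere and inner kinetochore, 6 of 8 members fell and the median log2 fold change was -0.63. The pair that marks the centromere fell together. HJURP (ENSG00000123485, chr2:233833416-233854566, minus strand), the chaperone that loads CENPA, stood at 5.52, 5.43 and 5.44 FPKM in DMSO and at 1.77, 1.93 and 2.25 FPKM in PD (-1.12 ± 0.10, limma adjusted p = 0.000511). CENPA, the histone H3 variant of centromeres, stood at 6.04, 6.36 and 7.06 FPKM against 3.15, 2.07 and 3.40 FPKM (-0.97 ± 0.15, limma adjusted p = 0.00426). The DMSO values of HJURP were close to identical, and its PD mean was 36.3% of the DMSO mean. The other members, CENPI, CENPK, CENPM, CENPN, CENPU and CENPW, encode parts of the constitutive centromere network that stays on the centromere through the cell cycle. CENPM stood at 14.5, 12.0 and 14.0 FPKM in DMSO and 7.80, 6.33 and 8.93 FPKM in PD (-0.75 ± 0.13, limma adjusted p = 0.00718). CENPU stood at 7.25, 4.63 and 5.58 FPKM against 2.43, 3.70 and 3.50 FPKM (-0.69 ± 0.18, limma adjusted p = 0.0271).

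Within this network several calls depended on single libraries. CENPK stood at 5.93, 4.08 and 3.56 FPKM in DMSO and at 2.30, 2.67 and 3.11 FPKM in PD (-0.56 ± 0.17, limma adjusted p = 0.0471). CENPI stood at 8.36, 6.89 and 6.52 FPKM against 4.40, 4.96 and 5.23 FPKM (-0.49 ± 0.11, limma adjusted p = 0.0189). In both genes all PD samples lay below all DMSO samples. The call of CENPK ended without any sample other than DMSO replicate 3 (limma adjusted p = 0.0517 to 0.132), that of CENPI without PD replicate 1 or 2 (limma adjusted p = 0.0631 and 0.0602), and that of CENPU without DMSO replicate 1, DMSO replicate 3 or PD replicate 1 (limma adjusted p = 0.0541, 0.0689 and 0.0731). CENPN and CENPW did not pass and their groups overlapped. CENPN stood at 7.61, 5.62 and 5.56 FPKM in DMSO and at 5.20, 5.56 and 7.52 FPKM in PD (-0.04 ± 0.16, 95% interval -0.41 to 0.34, limma adjusted p = 0.890). The log2 fold change of CENPN turned to 0.0925, 0.0539 and 0.0128 without DMSO replicate 1, PD replicate 1 and PD replicate 2, and 22.8% of its exonic bases are shared with genes on the opposite strand. CENPW stood at 9.34, 8.48 and 11.4 FPKM against 11.5, 5.00 and 8.39 FPKM (-0.26 ± 0.25, 95% interval -0.86 to 0.34, limma adjusted p = 0.484), the widest interval of the members tested, and its log2 fold change turned to 0.0246 without PD replicate 2.

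Of 10 outer kinetochore members 9 were tested, and these 9 fell, with a median log2 fold change of -0.81. These proteins bind the microtubules. Of the NDC80 complex, NDC80 itself stood at 18.5, 13.1 and 11.6 FPKM in DMSO and at 5.41, 5.88 and 7.78 FPKM in PD (-1.05 ± 0.19, limma adjusted p = 0.00739). NUF2, its partner at the microtubule end, stood at 6.72, 6.23 and 4.95 FPKM against 2.52, 3.62 and 3.65 FPKM (-0.71 ± 0.15, limma adjusted p = 0.0138). The subunits at the other end, SPC24 and SPC25, were low in level. SPC25 stood at 1.84, 1.53 and 2.46 FPKM, from 52, 48 and 80 reads, in DMSO, and at 0.318, 0.495 and 0.725 FPKM, from 9, 14 and 20 reads, in PD (-0.96 ± 0.17, limma adjusted p = 0.00726). SPC25 is the only member that passed the minimum level through the DMSO samples alone. It could therefore only fall or not pass, and its fall adds no support to the counts that include it. Its PD mean was 26.4% of the DMSO mean, the lowest share of the 58, which the pseudocount of 1 hides on the log2 scale. SPC24 was too low to be tested, with 0.826, 1.12 and 0.599 FPKM in DMSO against 0.298, 0.161 and 0.423 FPKM in PD. Its groups did not overlap either.

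The KNL1 branch, the SKA complex and the motor CENPE complete the outer kinetochore. ZWINT, which bridges to the dynein adaptors, stood at 7.91, 9.30 and 9.24 FPKM in DMSO and at 4.74, 4.33 and 4.69 FPKM in PD (-0.81 ± 0.09, limma adjusted p = 0.00149). KNL1, the scaffold for the checkpoint proteins, stood at 12.7, 8.60 and 8.86 FPKM against 5.76, 5.90 and 7.22 FPKM (-0.59 ± 0.16, limma adjusted p = 0.0315). It changed least among those that fell in this role, and its call ended without DMSO replicate 3, PD replicate 1 or PD replicate 2 (limma adjusted p = 0.0525, 0.0933 and 0.103). SKA1 and SKA3, of the complex that tracks microtubule ends, fell by 0.81 and 0.86 on the log2 scale (limma adjusted p = 0.0109 and 0.0139). Without PD replicate 2, SKA3 did not pass (limma adjusted p = 0.0529). CENPE, a kinesin that carries chromosomes to the metaphase plate, stood at 17.2, 10.8 and 9.68 FPKM in DMSO and 4.83, 6.40 and 7.11 FPKM in PD (-0.91 ± 0.22, limma adjusted p = 0.0214), and its call ended without PD replicate 1 or 2 (limma adjusted p = 0.0668 and 0.0604). CENPF, a large protein of the kinetochore corona, stood at 23.5, 18.7 and 17.4 FPKM against 10.5, 12.1 and 12.1 FPKM (-0.72 ± 0.13, limma adjusted p = 0.00698).

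Of the chromosomal passenger complex and the shugoshins, 5 of 6 members fell, with a median log2 fold change of -0.67. BIRC5, the survivin subunit that brings the complex to the centromere, was the most abundant at 45.5, 35.8 and 40.8 FPKM in DMSO and 20.4, 18.1 and 21.5 FPKM in PD (-0.99 ± 0.11, limma adjusted p = 0.00151). CDCA8, the borealin subunit, stood at 28.4, 26.5 and 29.6 FPKM against 18.0, 16.8 and 17.4 FPKM (-0.66 ± 0.08, limma adjusted p = 0.00194). Survivin and borealin form the centromere-binding end of the complex. AURKB, its kinase, stood at 10.8, 14.5 and 16.1 FPKM in DMSO and 9.27, 7.41 and 8.04 FPKM in PD (-0.67 ± 0.15, limma adjusted p = 0.0178). INCENP, the scaffold that activates AURKB, stood at 6.40, 9.44 and 8.51 FPKM against 6.35, 5.88 and 4.67 FPKM (-0.45 ± 0.16, 95% interval -0.82 to -0.09) and did not pass (limma adjusted p = 0.0690). In INCENP the highest PD sample lay just under the lowest DMSO sample. SGO2, a shugoshin that guards centromeric cohesion, stood at 9.48, 5.45 and 5.19 FPKM in DMSO and at 1.86, 2.31 and 3.50 FPKM in PD (-1.10 ± 0.24, limma adjusted p = 0.0160). SGO1, its mitotic relative, stood at 3.28, 1.99 and 1.88 FPKM against 1.21, 0.986 and 1.39 FPKM (-0.60 ± 0.18, limma adjusted p = 0.0416). DMSO replicate 1 stood far above its group for both shugoshins. The call of SGO1 ended without any single sample (limma adjusted p = 0.0537 to 0.129), that of SGO2 without PD replicate 1 or 2 (0.0519 and 0.0584 by limma), and that of AURKB without DMSO replicate 2, DMSO replicate 3 or PD replicate 2 (0.0603, 0.0579 and 0.0697 by limma).

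**Figure D4:**
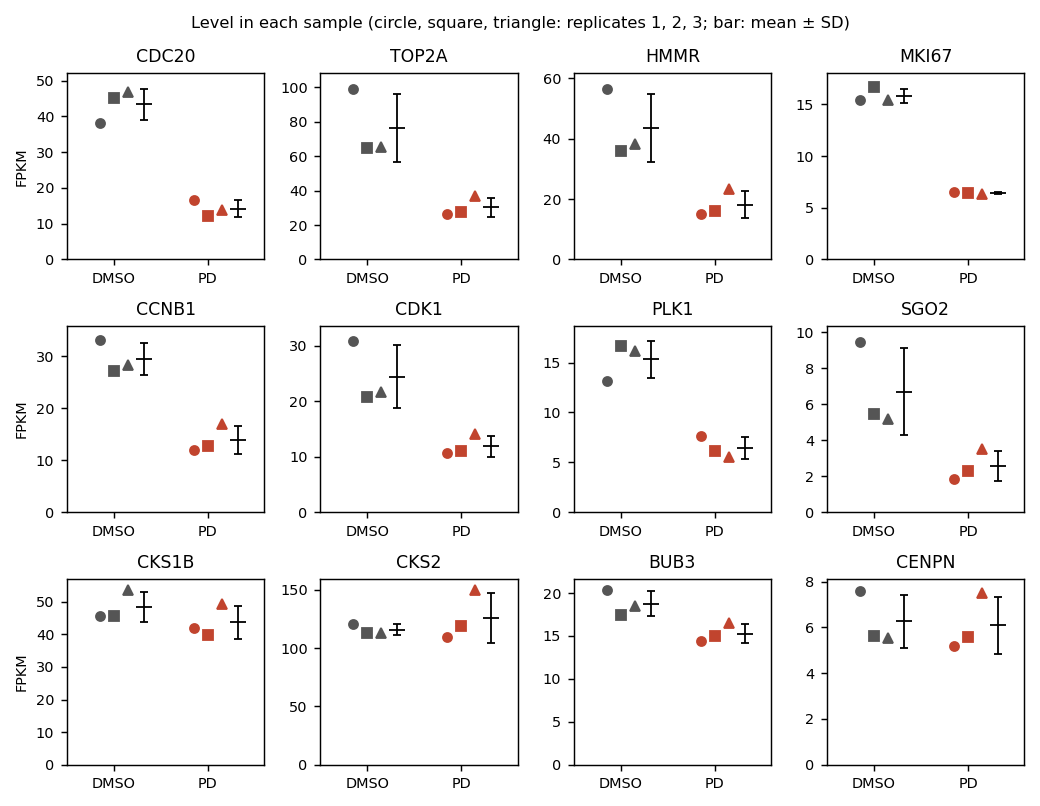
FPKM on a linear axis from 0 in each sample for 12 members (circle, square and triangle for replicates 1, 2 and 3), with the group mean ± SD (n = 3). CDC20 lies between 38.3 and 46.7 FPKM in DMSO and between 12.2 and 16.8 FPKM in PD, whereas CKS1B, CKS2 and CENPN show groups that overlap.

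All 4 members that act through the anaphase-promoting complex, the ubiquitin ligase that opens anaphase, fell, with a median log2 fold change of -0.95. CDC20 (ENSG00000117399, chr1:43358955-43363203), its mitotic activator, had the largest log2 fold change of the 56. It stood at 38.3, 45.1 and 46.7 FPKM in DMSO and at 16.8, 12.2 and 13.8 FPKM in PD, which was -1.55 ± 0.13 (95% interval -1.86 to -1.23, limma adjusted p = 0.000506). The PD mean was 32.9% of the DMSO mean, and by mean level CDC20 moved from rank 7 to rank 14 of the 58. PTTG1, the securin that is destroyed at anaphase, stood at 11.7, 12.9 and 11.6 FPKM against 4.79, 5.40 and 6.79 FPKM (-0.98 ± 0.12, limma adjusted p = 0.00202). The complex works with a pair of ubiquitin-conjugating enzymes, and these differed in size. UBE2C, which starts ubiquitin chains, stood at 26.2, 29.8 and 34.0 FPKM in DMSO and 14.0, 16.2 and 16.2 FPKM in PD (-0.91 ± 0.12, limma adjusted p = 0.00221). UBE2S, which extends them, stood at 71.3, 61.4 and 71.6 FPKM against 55.4, 44.0 and 52.1 FPKM (-0.43 ± 0.12, limma adjusted p = 0.0325). UBE2S was the smallest fall among the 47, and its call ended without DMSO replicate 1 (limma adjusted p = 0.0673), DMSO replicate 3 (limma adjusted p = 0.106), PD replicate 2 (limma adjusted p = 0.109) or PD replicate 3 (limma adjusted p = 0.0512). Pseudogene reads came to 3.33% of those of UBE2C (UBE2CP2) and to 2.10% of those of UBE2S (UBE2SP1).

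Spindle genes had the lowest median log2 fold change of the 9 roles, at -0.996, and 5 of 6 fell. HMMR (ENSG00000072571, chr5:163460203-163491945), a hyaluronan receptor that also binds spindle microtubules, stood at 56.5, 35.9 and 38.2 FPKM in DMSO and at 15.0, 16.1 and 23.3 FPKM in PD (-1.22 ± 0.21, limma adjusted p = 0.00713). ASPM, a spindle pole protein, stood at 12.0, 8.84 and 8.11 FPKM against 3.87, 4.04 and 4.06 FPKM (-1.08 ± 0.14, limma adjusted p = 0.00215). The PD samples of ASPM were close together, while for HMMR replicate 3 was the highest of its group. AURKA, the kinase of the spindle poles, stood at 19.1, 19.2 and 19.3 FPKM in DMSO and 8.43, 7.76 and 10.6 FPKM in PD (-1.03 ± 0.12, limma adjusted p = 0.00130). TPX2, which activates AURKA, was the most abundant at 64.5, 53.4 and 57.4 FPKM against 31.9, 32.0 and 36.5 FPKM (-0.79 ± 0.10, limma adjusted p = 0.00238). DLGAP5, a microtubule-stabilising protein that AURKA phosphorylates, stood at 20.2, 13.9 and 14.4 FPKM against 6.87, 6.71 and 9.95 FPKM (-0.96 ± 0.19, limma adjusted p = 0.00977). NUSAP1, which bundles microtubules around chromosomes, did not pass. It stood at 2.36, 2.37 and 2.62 FPKM in DMSO and at 1.40, 1.97 and 2.02 FPKM in PD (-0.31 ± 0.12, 95% interval -0.60 to -0.02, limma adjusted p = 0.108), with no overlap of the groups. Of its exonic bases 62.2% are shared with AC087721.2, a protein-coding gene on the same strand that the table lists at 0 in every sample, so the deposited level of NUSAP1 is uncertain.

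In cytokinesis 1 of 3 members fell. ECT2, the exchange factor that switches on RHOA at the cell equator, stood at 46.9, 36.4 and 34.6 FPKM in DMSO and at 23.3, 24.99 and 31.4 FPKM in PD (-0.55 ± 0.15, limma adjusted p = 0.0364). PD replicate 3 came close to DMSO replicate 3, and the call of ECT2 ended when any sample other than PD replicate 3 was left out (limma adjusted p = 0.0518 to 0.115). ANLN, the anillin scaffold of the contractile ring, stood at 43.0, 30.3 and 28.96 FPKM against 20.0, 23.4 and 28.2 FPKM (-0.49 ± 0.18, 95% interval -0.91 to -0.07) and did not pass (limma adjusted p = 0.0833). PRC1, which bundles the central spindle, was not tested. It was listed at 0.200, 0.255 and 0.256 FPKM in DMSO and 0.259, 0.259 and 0.193 FPKM in PD, from 16 to 25 reads per sample, and 57.6% of its exonic bases are shared with AC068831.7, a protein-coding gene on the same strand at a mean of 1.18 FPKM in DMSO and 1.14 FPKM in PD. What these values say of PRC1 itself is uncertain.

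All 6 members of the condensin and chromosome role fell, with a median log2 fold change of -0.82. Condensin and topoisomerase II compact and untangle the chromosomes. TOP2A (ENSG00000131747, chr17:40388516-40417950, minus strand), the topoisomerase of dividing cells, stood at 99.3, 65.0 and 65.3 FPKM in DMSO and at 26.7, 27.3 and 36.7 FPKM in PD (-1.30 ± 0.20, 95% interval -1.76 to -0.84, limma adjusted p = 0.00392). MKI67 (ENSG00000148773, chr10:128096659-128126385, minus strand), the Ki-67 protein that coats mitotic chromosomes and the usual marker of dividing cells, stood at 15.5, 16.6 and 15.4 FPKM against 6.50, 6.40 and 6.34 FPKM (-1.18 ± 0.08, limma adjusted p = 0.000187). Its 3 PD samples lay almost on each other, and MKI67 had the lowest adjusted p of the 56. By level TOP2A moved from rank 2 in DMSO to rank 5 in PD.

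The condensin subunits had smaller log2 fold changes than these. SMC2 and SMC4 form the ATPase core shared by condensins I and II, and NCAPG and NCAPH belong to condensin I. NCAPG stood at 27.3, 19.3 and 19.2 FPKM in DMSO and at 9.94, 10.8 and 13.5 FPKM in PD (-0.88 ± 0.17, limma adjusted p = 0.00908). NCAPH stood at 7.55, 7.78 and 8.38 FPKM against 4.91, 3.71 and 5.35 FPKM (-0.66 ± 0.13, limma adjusted p = 0.00910). In both, all PD samples lay under all DMSO samples, although 33.1% of the exonic bases of NCAPG are shared with LCORL on the opposite strand. SMC4 stood at 32.7, 22.9 and 21.3 FPKM in DMSO and 13.3, 14.2 and 15.9 FPKM in PD (-0.76 ± 0.16, limma adjusted p = 0.0140). SMC2 stood at 13.9, 9.42 and 9.41 FPKM against 6.23, 6.52 and 8.26 FPKM (-0.56 ± 0.17, limma adjusted p = 0.0454). The call of SMC2 ended without any sample other than PD replicate 3 (limma adjusted p = 0.0620 to 0.134), and that of SMC4 without PD replicate 2 (limma adjusted p = 0.0520). For SMC4 25.6% of the exonic bases lie opposite TRIM59 and IFT80.

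The sources used here do not say whether counting used the strand, so reads of overlapping genes on opposite strands may not have been separated. In all, 20 members share exonic bases with another gene, 13 of them over 5% of their length. Apart from those already given, the members over that share include SGO1 (17.7%), PLK1 (12.5%), CENPU (11.7%), CCNA2 (9.08%) and CDC25C (8.78%), all opposite other genes, and BUB1B (10.2%) and CENPA (6.96%), whose partners lie on the same strand. By mean in DMSO and PD, PRIMPOL opposite CENPU stood at 5.98 and 3.53 FPKM. EXOSC9 opposite CCNA2 stood at 7.5 and 8.2 FPKM, and FAM53C opposite CDC25C at 18.1 and 28.6 FPKM. The partners of SGO1 and PLK1 had means below 1 FPKM. What reads of partners add to the members' values was not tested.

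Another 136 genes of mitosis, in 8 lists fixed by name, are given for comparison. Of the 132 tested, 43 fell, 6 rose and 83 did not pass, with a median log2 fold change of -0.27, and 5 fell by at least 2-fold. Over all genes tested, 12.7% fell, 14.3% rose and 0.979% fell by at least 2-fold, the shares against which each list's counts below are to be read. Without PD replicate 2 the fallen numbered 28, and the risers numbered 3 without DMSO replicate 3, PD replicate 1 or PD replicate 2. Most of the members are known as late cell cycle genes, and the other lists hold many genes used at other times. Whether this bears on the counts was not tested. The counts are set side by side without a test of their difference.

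**Figure D5:**
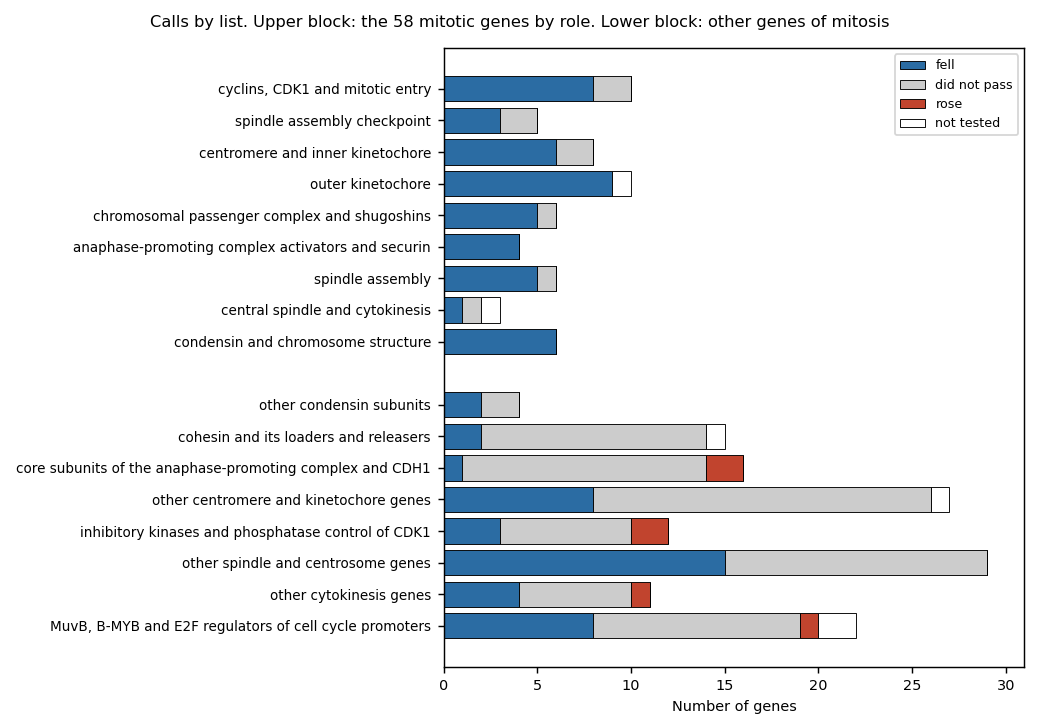
Number of genes that fell, did not pass, rose or were not tested (stacked bars from 0), for the 58 members by role (upper block) and for 136 other mitosis genes by list (lower block). Fallen genes are 47 of 56 tested members and 43 of 132 tested other genes, and all 6 risers are in the lower block.

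Cohesin holds sister chromatids together. Of the cohesin list, 2 of 14 tested genes fell, near the 12.7% of all genes that fell: ESPL1 (-0.81 ± 0.12, limma adjusted p = 0.00331) and CDCA5 (-0.64 ± 0.08, limma adjusted p = 0.00231). ESPL1 encodes separase and CDCA5 sororin, which act on cohesin in mitosis. The ring itself and its STAG subunits did not pass (named after their values were seen, limma adjusted p = 0.545 for SMC1A, 0.920 for SMC3, 0.187 for RAD21, 0.525 for STAG1 and 0.445 for STAG2). Of the core of the anaphase-promoting complex with its CDH1 activator and inhibitor, 1 of 16 fell and 2 rose (14.3% of all genes rose), beside the 4 of 4 that fell among its activator, enzymes and substrate above. The faller was FBXO5, the EMI1 inhibitor (-0.78 ± 0.16, limma adjusted p = 0.0132, but 0.0519 without PD replicate 2). The risers were ANAPC2 (0.46 ± 0.11, limma adjusted p = 0.0200) and CDC26 (0.44 ± 0.13, limma adjusted p = 0.0384), both subunits of the complex. ANAPC2 did not pass without DMSO replicate 3, PD replicate 1 or PD replicate 2 (limma adjusted p = 0.0620 to 0.0750), nor did CDC26 without any single sample (limma adjusted p = 0.0524 to 0.115).

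Among the kinases, phosphatases and other genes that hold CDK1 off or shape its activity, 3 of 12 fell and 2 rose. WEE1, the kinase that puts the inhibitory phosphate on CDK1, stood at 12.1, 11.1 and 11.0 FPKM in DMSO and at 21.2, 21.5 and 26.4 FPKM in PD (0.95 ± 0.11, limma adjusted p = 0.00132). MASTL, the Greatwall kinase that restrains a phosphatase opposing CDK1, stood at 11.4, 10.8 and 9.91 FPKM against 14.9, 15.6 and 16.3 FPKM (0.51 ± 0.09, limma adjusted p = 0.00652). Both rose under all 19 alternatives, in the direction opposite to CDK1, CCNB1 and the CDC25 genes. PKMYT1, the second inhibitory kinase of CDK1, fell instead (-0.66 ± 0.15, limma adjusted p = 0.0167), with 5.16, 7.36 and 7.27 FPKM in DMSO and 4.31, 3.75 and 3.26 FPKM in PD. Its call ended without DMSO replicate 2, DMSO replicate 3 or PD replicate 2 (limma adjusted p = 0.0593, 0.0606 and 0.0573). BORA, the cofactor with which AURKA activates PLK1, stood at 6.90, 4.76 and 6.71 FPKM against 2.37, 2.06 and 2.95 FPKM (-1.04 ± 0.16, limma adjusted p = 0.00391).

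Counts for the remaining structural lists were as follows. Of other condensin subunits 2 of 4 fell, NCAPD2 of condensin I (-0.80 ± 0.08, limma adjusted p = 0.000754) and NCAPG2 of condensin II (-0.63 ± 0.12, limma adjusted p = 0.00908). Of other kinetochore genes 8 of 26 fell, with OIP5, which helps to load CENPA, at -0.75 ± 0.14 (limma adjusted p = 0.00886) and SPDL1, a dynein adaptor, at -0.72 ± 0.17 (limma adjusted p = 0.0202). SPDL1 did not pass without PD replicate 1 or 2 (limma adjusted p = 0.0655 and 0.0749). Spindle and centrosome genes had the largest number, 15 of 29. FAM83D, a spindle protein, stood at 10.4, 9.50 and 8.88 FPKM in DMSO and 3.21, 2.42 and 4.07 FPKM in PD (-1.34 ± 0.15, limma adjusted p = 0.00130), and GTSE1, a microtubule-binding protein, at 16.1, 16.6 and 17.1 FPKM against 7.28, 6.91 and 7.41 FPKM (-1.10 ± 0.08, limma adjusted p = 0.000236). Of other cytokinesis genes 4 of 11 fell, led by CIT, the citron kinase of the midbody (-0.90 ± 0.09, limma adjusted p = 0.000844), and ARHGAP11A, a GTPase-activating protein for RHOA (-0.65 ± 0.13, limma adjusted p = 0.0113). The call of ARHGAP11A ended with the replicate number as a block (limma adjusted p = 0.0503). RHOA, the GTPase that ECT2 activates, rose (0.46 ± 0.13, limma adjusted p = 0.0417). Its level depended on the scaling: with quantile scaling the log2 fold change was 0.0479 (limma adjusted p = 0.761). The call of RHOA also ended without any single sample (limma adjusted p = 0.0556 to 0.134).

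In the list of MuvB, B-MYB, NF-Y and E2F genes, the factors tied to the promoter elements above, 8 of 20 fell and 1 rose. The MuvB genes LIN9, LIN52, LIN54 and RBBP4 did not pass (limma adjusted p = 0.305, 0.417, 0.971 and 0.720). LIN37, also of MuvB, was too low to be tested. These MuvB genes are named after their values were seen. E2F7, a repressor of the E2F family, stood at 5.39, 4.13 and 4.46 FPKM in DMSO and at 1.53, 1.79 and 1.52 FPKM in PD (-1.11 ± 0.12, limma adjusted p = 0.00101). E2F1, an activator of S phase genes, stood at 7.78, 7.82 and 8.22 FPKM against 3.93, 3.07 and 3.73 FPKM (-0.97 ± 0.10, limma adjusted p = 0.000963). MYBL2, the B-MYB partner of MuvB, is named after its values were seen. It stood at 23.2, 25.6 and 27.2 FPKM in DMSO and 14.0, 11.7 and 11.6 FPKM in PD (-0.97 ± 0.11, limma adjusted p = 0.00121). NFYA, the regulatory subunit of NF-Y, rose, with 11.6, 10.9 and 12.4 FPKM in DMSO and 16.9, 17.6 and 16.1 FPKM in PD (0.50 ± 0.09, limma adjusted p = 0.00646), and it did so under all 19 alternatives.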

How the data were processed

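RNA was sequenced as 150-base read pairs from a stranded mRNA kit on a HiSeq machine, per the labels' protocols, in 3 DMSO and 3 PD samples. The authors deposited FPKM values with gene lengths. The aligner, the counter and its strand setting are not given in these sources. GRCm38 and mm10, both mouse builds, are listed in the submitters' processing notes, but all 58735 gene identifiers and positions are those of GENCODE 29 (human, GRCh38). Each column was assigned by its group prefix and its number, which closes the sample's title. Gene names turned into dates (27) were restored from identifiers.

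The deposited FPKM were used as log2(FPKM + 1), where a pseudocount of 1 understates changes of genes at low FPKM. The 13579 genes with at least 1 FPKM in at least 3 samples were fitted with limma 3.58.1 (R 4.3.3; two-sided, with a mean-variance trend and no covariate), with Benjamini-Hochberg adjustment over all of them. "Rose" and "fell" mean an adjusted p under 0.05, and 2-fold calls also need a log2 fold change beyond 1, the thresholds in the labels. FPKM times gene length came out as whole reads for 100% of values (tolerance 0.01). The FPKM denominator of each sample, divided by its gene total, was 1.03, 1.10 and 1.08 (DMSO) and 1.00, 0.997 and 0.947 (PD), so the deposited values carry a scaling of unknown origin. The recovered reads served only as an alternative (limma's voom), in which 5494 genes passed. The fit was tested on simulated data. Other settings tried were pseudocounts, filters, scalings, array weights, a replicate block, a GC correction (loess, span 0.3) and leaving out samples.

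The members and lists were chosen with earlier results of these data known. Named in full are, per role, the 2 members with the largest and the 1 with the smallest log2 fold change, those that did not pass or changed call, and, per other list, the 2 fallen genes with the largest change and all risers. CKS2 replaced BUB3 among the printed promoters, since none was found for BUB3. Promoters are from RefSeq (GRCh38.p14).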

Additional observations from a re-analysis of the deposited data

How the results depend on the processing

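Over the 19 alternatives, 34 to 53 members fell and none rose. The share of all genes that fell ranged from 3.32% with no filter to 22.9% with array weights. Of the 47, 29 fell under every alternative, and 32 under the 18 other than a minimum mean of 5 FPKM, which leaves fewer genes. The count past 2-fold, 14, became 3 with a pseudocount of 5, 24 with equal totals, 31 with voom, and 9 to 22 when single samples were left out. Genes past the test over the whole table, 3678, became 2214 with a minimum mean of 5 FPKM, 6301 with array weights and 2003 to 3534 without single samples and 4558 without the pair DMSO replicate 1 and PD replicate 3. The fallen genes of the other mitosis lists, 43, became 66 with equal totals, 73 with voom, 68 with the GC correction and 28 to 45 without single samples and 54 without those 2 libraries. Their risers, 6, became 3 with no filter, 3 with equal totals, 13 with array weights, 10 with the GC correction, 10 without those 2 libraries, and 3 to 6 without single samples. The cause of these shifts was not tested. The log2 fold change of CKS2 turned to -0.0117 with equal totals, -0.0618 with quantile scaling and -0.0111 with voom. Leaving out single samples moved CKS2 between -0.0202 and 0.206, CENPN between -0.175 and 0.0925, and CENPW between -0.508 and 0.0246. BUB3, MAD2L1, INCENP, NUSAP1 and ANLN passed under some alternatives, in the direction reported. With no filter on low values 34 members fell.

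Same-numbered samples did not deviate together (correlations of -0.388, 0.168 and -0.163 for replicates 1, 2 and 3). Most libraries also deviated with GC content, so this check cannot tell whether the numbers pair the samples. With the replicate number as a block, 34 members fell, 13 of them by 2-fold, 1844 genes passed over the whole table and 26 of the other mitosis genes fell. NUF2 (adjusted p = 0.0550, limma) lost its call under the block alone.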
